A study of Mus musculus with 4 samples.

Results

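Cells of day 9 mouse embryoid bodies that shared transcripts of Onecut2, Tff3, Anpep, Ugt2b34, Tspan8, Vnn1 and Tm4sf4 were examined. The cells were chosen by their measured transcripts: a cell was a member when at least 5 of these 7 genes had 1 or more unique molecular identifiers (UMIs, each standing for 1 captured transcript) in it. Of 10090 deposited cells, 8876 were kept for having 500 or more detected genes and a mitochondrial share of counts no higher than 10%, and the rule found 643 members among them (7.24%). Embryoid bodies, aggregates in which embryonic stem cells differentiate, were grown from control mouse embryonic stem cells or from such cells pulsed with DUX, and 2 libraries of each group, described by the submitters as biological replicates, were made with 10x Genomics droplets. The labels call every sample a cultured embryonic stem cell organoid. The strain, the promoter and length of the pulse, the number of clones and the number of embryoid bodies pooled per library are not given in the sources used here. Both groups share the day of culture and the library method. Control replicates 1 and 2 held 239 and 296 members, and DUX-pulsed replicates 1 and 2 held 55 and 53.

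DUX is a transcription factor of the early cleavage stage embryo, and its brief expression turns on genes of that stage in embryonic stem cells. The inner lining of the gut, the liver and the yolk sac arise from endoderm, in which factors of the FOXA, HNF1, HNF4, GATA, ONECUT and CDX families act together on overlapping genes. Onecut2 is a homeodomain factor of liver, bile duct and gut progenitors, and Cdx2 specifies intestinal identity. Of the other genes of the rule, Tff3 encodes a secreted trefoil peptide of mucous epithelia, Anpep an aminopeptidase of the brush border, Ugt2b34 a glucuronosyltransferase, Tspan8 a tetraspanin of gut epithelium, Vnn1 a pantetheinase, and Tm4sf4 a membrane protein of the L6 family.

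The RefSeq promoter table (GRCm38.p6) held 1 window each for 4 of the 6 rule genes looked up, Anpep, Ugt2b34, Tspan8 and Tm4sf4, and for Afp, Itih2 and Ambp, secreted-protein genes of the endoderm whose levels are compared further on. The 250 bases before each start were searched on both strands for 6 short motifs of endoderm factors. Of 32851 promoter windows of that length, 6.43% held the HNF1 type motif GTTAAT and 12.6% the HNF4 type motif CAAAGT. The FOXA type motif TGTTTAC was in 3.17%, and the ONECUT type motif ATTGAT was in 6.72%. The CDX type motif TTTATNG was in 9.81% of the windows, and 9.99% held that of the GATA family, AGATAA. None of the matches shared a base with another match in these windows. The 4 windows with a match are printed here, 5′ to 3′ on the strand of the gene, with the matched letters, or their reverse complement, in capitals. They are shown because Tspan8 and Tm4sf4 helped to choose the cells and Afp and Itih2 differed between the groups.
Tspan8, chr10:115817034-115817283 (+): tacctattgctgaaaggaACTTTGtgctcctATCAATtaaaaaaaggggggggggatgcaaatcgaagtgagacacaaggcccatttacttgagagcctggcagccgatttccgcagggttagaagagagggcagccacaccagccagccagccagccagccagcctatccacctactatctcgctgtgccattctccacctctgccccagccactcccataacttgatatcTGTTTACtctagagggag
Tm4sf4, chr3:57425160-57425409 (+): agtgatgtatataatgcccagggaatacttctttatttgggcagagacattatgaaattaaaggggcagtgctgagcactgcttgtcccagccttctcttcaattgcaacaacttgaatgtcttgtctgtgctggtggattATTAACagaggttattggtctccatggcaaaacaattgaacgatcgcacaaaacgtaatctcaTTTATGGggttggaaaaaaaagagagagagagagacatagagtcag
Afp, chr5:90490464-90490713 (+): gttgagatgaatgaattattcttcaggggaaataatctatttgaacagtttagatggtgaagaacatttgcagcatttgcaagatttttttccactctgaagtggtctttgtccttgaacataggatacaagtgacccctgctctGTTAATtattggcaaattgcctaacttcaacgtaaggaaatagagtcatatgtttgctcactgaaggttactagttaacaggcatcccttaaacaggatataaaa
Itih2, chr2:10130684-10130933 (-): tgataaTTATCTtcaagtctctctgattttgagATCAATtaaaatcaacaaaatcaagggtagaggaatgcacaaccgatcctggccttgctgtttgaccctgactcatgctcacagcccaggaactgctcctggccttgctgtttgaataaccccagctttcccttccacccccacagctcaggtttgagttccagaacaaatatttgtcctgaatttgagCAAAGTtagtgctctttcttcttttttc
Tspan8 held CAAAGT and ATTGAT on the opposite strand, starting 232 and 219 bases before the transcription start, and TGTTTAC from base 18. Tm4sf4 held GTTAAT on the opposite strand at base 109 and a CDX type match at base 46. In Afp, GTTAAT stood 105 bases before the start. Itih2 held CAAAGT at base 28, with ATTGAT and AGATAA on the opposite strand at bases 217 and 244. The windows of Anpep, Ugt2b34 and Ambp held none of the 6 motifs. A match describes the letters only, and binding was not measured.

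Members were deeper than the rest of the culture. Their median depth was 40438 and 33689 UMIs in control replicates 1 and 2 and 37126 and 42341 in DUX-pulsed replicates 1 and 2, against 26546 to 29525 in the other kept cells. Median mitochondrial shares of members were 6.88% and 7.08% in control and 4.60% and 4.73% in DUX-pulsed libraries, and the other kept cells differed between groups in the same direction (6.14% and 6.32% against 3.98% and 4.52%). The part of this difference in the results was not tested. Between libraries, 8 cell barcodes of the deposited cells recurred, and none of these pairs was a member in both. Scrublet called 27 doublets (0.304% of kept cells), too few for its threshold to be trusted, so doublets were kept, and 24 members lay in the top 5% of its scores.

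Among the 643 members, Tspan8 was detected in 98.6%, Tff3 in 95.2%, Vnn1 in 87.6%, Onecut2 in 78.2%, Ugt2b34 in 76.8%, Anpep in 63.0% and Tm4sf4 in 53.7%. The cells were selected on these values, which are a description. As background from free RNA, the same genes were detected in 0 to 4.52% of 619 heart muscle cells (1 or more UMIs of Tnnt2, Myh6 and Tnni3 and none of Epcam, median depth 24235 UMIs against 36916 in members). The highest of those background values was that of Vnn1, which reached 14.8% (4 of 27 cells) in the heart muscle cells of control replicate 2. Of the 619 cells, 338 and 210 came from the DUX-pulsed libraries. Requiring no Epcam UMI can leave out heart muscle cells that hold free epithelial RNA, so these values may understate the background. Just inside the rule, 373 cells held exactly 5 of the markers, and just outside it 749 cells held exactly 4. Onecut2 was detected in 70.0% of the former and 46.6% of the latter, and Tm4sf4 in 37.3% and 18.8%.

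Detection of the 7 genes within members follows in part from the rule, since a member without Anpep must hold 5 of the other 6. Anpep was detected in 69.0% and 75.0% of members of control replicates 1 and 2 but in 18.2% and 15.1% of those of DUX-pulsed replicates 1 and 2. Onecut2 was detected in 77.4% and 73.0% against 94.5% and 94.3%. In the other kept cells Onecut2 was detected in 11.8% and 12.1% (control) and in 13.0% and 9.92% (DUX-pulsed), and Anpep in 8.39% and 13.1% against 7.07% and 9.46%, with overlapping groups for both genes. Ugt2b34 lay between 75.3% and 78.7% in all 4 libraries, and Tm4sf4 between 51.5% and 58.5%. Most DUX-pulsed members entered the set by the other 6 genes, since 81.8% and 84.9% of them held no Anpep UMI, against 31.0% and 25% of control members. By level, Anpep stood at 46.9 and 86.2 CPM (counts summed over the members of a library and scaled to a common total) in control members and at 3.97 and 11.6 CPM in DUX-pulsed members.

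**Figure D1:**
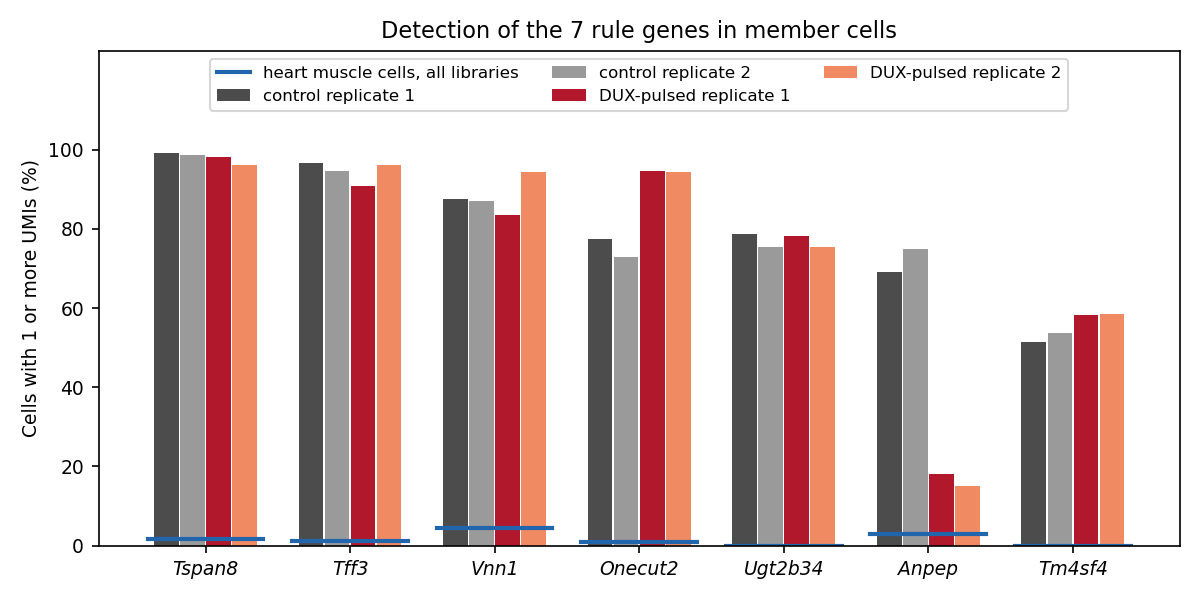
Bars give the share of member cells with 1 or more UMIs of each rule gene (y axis, %) in each of the 4 libraries, and the blue line gives the share in the 619 heart muscle cells of all libraries. Anpep stands at 69.0% and 75.0% in the control libraries and at 18.2% and 15.1% in the DUX-pulsed ones, while Tspan8 stands above 96% in each.

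The label of the cells, gastrointestinal-like endoderm, was checked against genes that the rule did not use. Epcam, an epithelial adhesion gene, was detected in 100% of members of every library. Cdx2 was detected in 89.1% to 94.1% of members and in at most 4.55% of the heart muscle cells of any library, where it had 2 of 44 cells, and Foxa2 in 76.4% to 90.6%. Vil1, which encodes the brush border protein villin, was detected in 64.0% to 84.9%, Krt20, a keratin of mature gut epithelium, in 53.1% to 66.0%, and Rbp2, an intestinal retinol carrier, in 37.5% to 50.9%. Members were deeper than the other kept cells (median 36916 against 27971 UMIs), whose detection is not set beside these shares. The shares describe members and do not set them apart from other epithelial cells of the culture. Defining genes of mature gut were near or at 0: Muc2, the goblet cell mucin, was detected in at most 2.03% of members, Lct, lactase, in at most 0.676% and Cdx1 in at most 0.418%. Pdx1, a factor of the duodenum and pancreas, ranged from 7.27% to 34.3%. As a whole, the 29 measured genes of a brush border and absorption list set members less apart in the controls. They summed to 3064 and 3724 CPM in control members against 2666 and 3420 CPM in the other kept cells. In DUX-pulsed libraries the sums were 1882 and 1876 CPM against 1055 and 733.9 CPM. Alpi, of the same list, had no UMI in members.

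Genes of the stomach were low. The 15 measured genes of a stomach list summed to 20.4 and 22.7 CPM in control members and 65.9 and 74.1 CPM in DUX-pulsed members, and Sox2, which marks the foregut, was detected in 1.01% to 7.27% of members. The share of cells with Sox2 reached 13.6% in the heart muscle cells of control replicate 1 (6 of 44 cells), above its share in members of any library. Secreted liver-type genes were high: 20 of them summed to between 19100 and 22920 CPM in members, against 6054 to 15720 CPM in the other kept cells. Rbp4, the serum retinol carrier, alone reached 9119 to 13700 CPM. The cells thus carried Cdx2 and villin with abundant secreted-protein transcripts that liver and yolk sac endoderm also make, and few transcripts of Muc2 or of the stomach list. A goblet and secretory list summed to 3396 and 3819 CPM in control members and 1216 and 1128 CPM in DUX-pulsed members, nearly all of it from Spink1. In the other kept cells it summed to 6773 and 7225 CPM (control), above members, and to 820.6 and 742.5 CPM (DUX-pulsed), below them. The cells are called Onecut2 and Tff3 cells or members here, after the rule.

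Beyond the rule, the genes with the largest ratio to the other kept cells, with at least 100 CPM in members, were led by Serpina1b, an antitrypsin gene with near-identical copies that the counting may not separate (4.40-fold), Ghrl, the precursor of ghrelin (3.86-fold), Ociad2 (3.26-fold), Cdx2 (3.22-fold) and Afp, the fetal plasma protein alpha-fetoprotein (3.03-fold). These ratios follow from the choice of cells and are given without a test. Serpina1b stood at 103 to 169 CPM in members over the 4 libraries and at 24.7 to 32.4 CPM in the other kept cells. Cdx2 stood at 91.3 to 159 CPM against 21.9 to 69.2 CPM. Dio3 (thyroid hormone deiodinase), Hpx (the heme carrier hemopexin), Gsto1, Gde1, Gstm1, Rbp4, Spp2, Apoa1, Nepn, Pla2g12a, Limch1, Rnase4, Id2, Bex1 and Lipa made up the rest of the 20, with ratios from 2.0-fold to 2.88-fold.

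Members were set beside 3 other endoderm sets that each hold 1 or more UMIs of 3 genes. Cells with Ghrl, Pyy and Afp shared Cdx2 with members (80.8 to 108 CPM in the non-members of that set), whereas cells with Itih2, Ambp and Vtn had 21.1 to 42.4 CPM of it. Dio3 split them in the same way, at 97.1 to 158 CPM and at 16.0 to 21.1 CPM, with members at 88.9 to 171 CPM. Serpina1b was highest in the Itih2, Ambp and Vtn cells (150 to 279 CPM). Rbp4, at 9119 to 13700 CPM in members, stood at 12620 to 14140 CPM in the Ghrl, Pyy and Afp cells, with overlap. In the Itih2, Ambp and Vtn cells it stood at 4275 to 7739 CPM. Onecut2 itself stood at 54.3 to 83.9 CPM in those cells, against 73.9 to 104 CPM in members and 11.6 to 35.3 CPM in the Ghrl, Pyy and Afp cells. Onecut2 and Tff3 are rule genes, and members were left out of all 3 sets. Higher levels of these genes in members than in the sets therefore follow in part from the rule and are given as a description. Tff3 was at 19.6 to 49.5 CPM in the Itih2, Ambp and Vtn cells and at 164 to 284 CPM in members, whose range overlapped the 76.3 to 185 CPM of the Ghrl, Pyy and Afp cells. Within each library it was higher in members. They had 284 and 264 CPM (control) and 164 and 257 CPM (DUX-pulsed), against 76.3, 113, 132 and 185 CPM in the Ghrl, Pyy and Afp cells of the same libraries. Cells with Ly6h, Rarres1 and Cldn9 had 62.4 to 270 CPM of Tff3, 86.3 to 109 CPM of Cdx2 and 88.3 to 211 CPM of Dio3, all overlapping members, and 7.57 to 36.5 CPM of Onecut2, below them. The overlap in Tff3 rested on 20 cells of DUX-pulsed replicate 1 (270 CPM). The controls had 68.3 and 62.4 CPM of it and DUX-pulsed replicate 2 had 65.3 CPM. Rbp4 in these cells, at 10640 to 15520 CPM, overlapped members as well.

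The overlap of members with these sets differed between the groups, as did the size of the sets in the whole culture. Cells with Ly6h, Rarres1 and Cldn9 numbered 682 and 787 among the kept cells of control replicates 1 and 2 and 21 and 14 among those of DUX-pulsed replicates 1 and 2. Those with Itih2, Ambp and Vtn numbered 21 and 28 against 83 and 48. Cells with all of Ly6h, Rarres1 and Cldn9 made up 43.9% and 43.2% of members in control replicates 1 and 2 and 1.82% and 1.89% in DUX-pulsed replicates 1 and 2, that is 1 cell in each of the latter. As a share of the Ly6h, Rarres1 and Cldn9 cells, members were 15.4% and 16.3% in the controls. Cells with all of Itih2, Ambp and Vtn made up 1.67% and 3.38% of control members and 32.7% and 24.5% of DUX-pulsed members, and members were 19% to 35.7% of that set. The Ghrl, Pyy and Afp cells made up 5.44% and 9.46% of control members and 14.5% and 7.55% of DUX-pulsed members, with overlapping groups. Shares of such triple-positive cells depend on depth, which differed between libraries.

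After every cell was thinned to 10000 UMIs, Itih2 and Ghrl were seen together rarely in DUX-pulsed members. Itih2 was detected in 1 of 19 and 1 of 20 members with Ghrl in DUX-pulsed replicates 1 and 2, and in 11 of 36 and 12 of 33 members without it. In control members Itih2 was found in 7.23% and 6.25% of the cells with Ghrl and in 4.49% and 6.03% of those without. Cldn9 was found in 32.2% and 38.6% of control members with Ly6h and in 7.5% and 13.9% of those without. These shares are descriptions over cells of the same libraries, with no test.

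The share of members was lower in DUX-pulsed embryoid bodies. Members were 8.46% (95% exact binomial interval 7.46 to 9.55) and 11.2% (10.0 to 12.5) of kept cells in control replicates 1 and 2. They were 2.67% (2.01 to 3.46) and 3.92% (2.95 to 5.09) in DUX-pulsed replicates 1 and 2, and the groups did not overlap. The means were 9.85% ± 1.96 (SD, n = 2) and 3.29% ± 0.885 (SD, n = 2), a difference of -6.55 points. The exact two-sided permutation test gave p = 0.333, the smallest value that 2 libraries against 2 allow, so this design cannot reach the 0.05 threshold. The intervals cover counting error only.

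The size of the difference depended on the denominator, the depth and the markers required. Epcam was detected in 74.5% and 79.4% of kept cells of the 2 controls, against 43.4% and 36.0% of kept DUX-pulsed cells. Among cells with an Epcam UMI, members were 11.4% and 14.1% in control libraries, against 6.15% and 10.9% in DUX-pulsed libraries. When cells were thinned to 10000 UMIs before the rule, 2.33% and 3.74% remained in control libraries, against 0.165% (3 cells) and 0.594% (6 cells) in DUX-pulsed libraries. Thinning left out 1570 kept cells that were shallower. With Anpep dropped from the rule and 4 of the remaining 6 genes required, the shares of all kept cells were 14.4% and 17.1% in control libraries and 8.0% and 8.87% in DUX-pulsed ones, a difference of -7.31 points with no overlap. Under the same rule the shares among Epcam cells were 19.3% and 21.5% against 18.4% and 24.6%, the groups overlapped and the difference was 1.13 points with DUX-pulsed higher. The alternatives without Anpep were chosen after the data were seen.

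**Figure D2:**
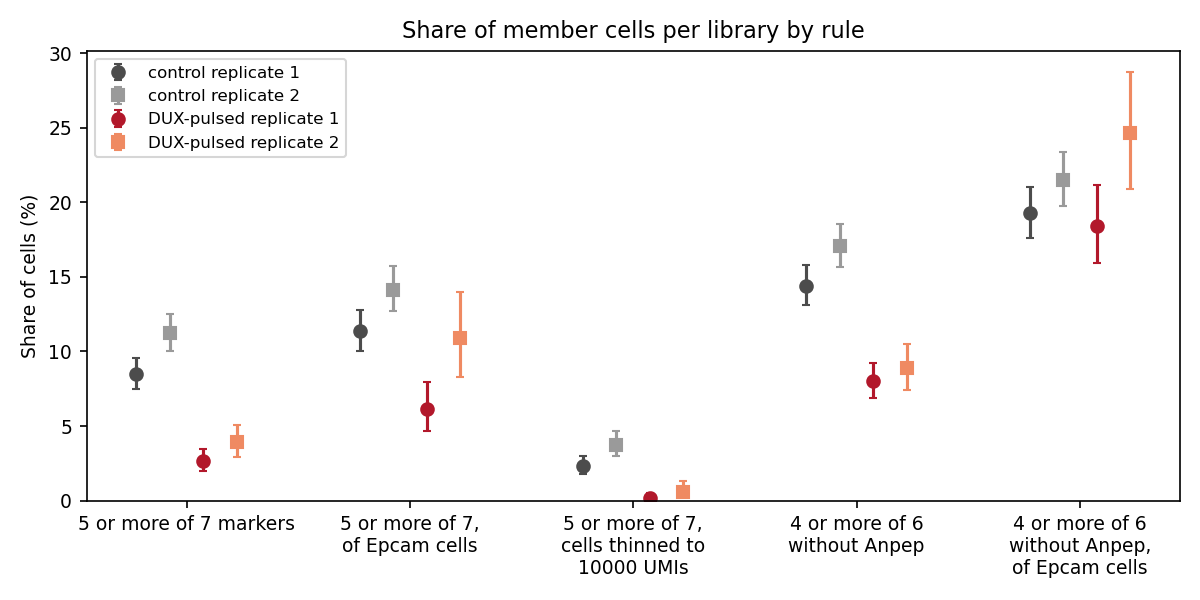
Points give the share of cells that meet each rule (y axis, %) in the 4 libraries, with 95% exact binomial intervals that cover counting error only. Under the rule of 5 or more of 7 markers the control libraries lie at 8.46% and 11.2% and the DUX-pulsed ones at 2.67% and 3.92%, and without Anpep among Epcam cells the groups overlap.

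Gene levels within members were then compared between DUX-pulsed and control libraries on counts summed over the members of each library, with edgeR's quasi-likelihood test. Of 12055 genes tested, 908 rose (7.53%) and 782 fell (6.49%) at a Benjamini-Hochberg adjusted p under 0.05. The median log2 fold change over all genes tested was -0.01. Both libraries of a group lay beyond both of the other in 57.5% of these genes. Leaving out control replicate 1 left 610 rises and 370 falls, and leaving out control replicate 2 left 602 and 423. Among members without an Anpep UMI, 569 genes rose and 396 fell, and without members holding all 3 of the Itih2, Ambp and Vtn or all 3 of the Ly6h, Rarres1 and Cldn9 genes, 577 rose and 432 fell. These were alternatives added after seeing the data.

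Genes of 5 chromosome regions moved as blocks between the groups in the other kept cells, and they did so in members too. Chromosome 13 and the distal parts of chromosomes 4 and 14 were higher in DUX-pulsed cells, and distal parts of chromosomes 5 and 16 were lower. In members 357 of 693 tested genes of the higher regions rose (51.5%), and 107 of 425 genes of the lower regions fell (25.2%). Outside these regions 541 of 10811 genes rose (5.0%) and 656 fell (6.07%). Genes inside a region are named as such below. What sets these regions apart was not tested.

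The 10 largest rises under the naming rule, in order, were Rhox5, Ccnd1, Itih2, Shh, Vcan, Gap43, Cdkn2b, Espn, Ambp and Stmn1. Ccnd1, which encodes cyclin D1 of the G1 phase (chr7:144929931-144939925), stood at 3.83 and 4.01 CPM over TMM-scaled library sizes in members of control replicates 1 and 2. It stood at 88.6 and 51.1 CPM in those of DUX-pulsed replicates 1 and 2, a separation that the naming rule also required. Its log2 fold change was 4.15 ± 0.29 (SE), with an edgeR adjusted p of 0.000245. The cell cycle inhibitor Cdkn2b rose as well, from 8.09 and 6.81 CPM to 68.7 and 65.9 CPM (3.17 ± 0.20 on the log2 scale, edgeR adjusted p = 0.000207).

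Shh encodes the sonic hedgehog ligand, which early gut endoderm sends to the surrounding mesenchyme (chr5:28456815-28467256). It was at 6.47 and 6.33 CPM in control members and at 89.9 and 81.1 CPM in DUX-pulsed members, a 13.3-fold rise by the fitted model (log2 3.74 ± 0.19, edgeR adjusted p = 0.000147). The replicates of each group were close together and the groups far apart. Shh was detected in 10.5% and 11.1% of control members and in 45.5% and 49.1% of DUX-pulsed ones. Among members without an Anpep UMI the rise of Shh was smaller, at 2.01 on the log2 scale (edgeR adjusted p = 0.000996).

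Itih2, an inter-alpha-trypsin inhibitor heavy chain secreted by liver (chr2:10094593-10131396), had 3.15 and 5.05 CPM in control members and 69.2 and 59.1 CPM in DUX-pulsed members. The fitted rise of Itih2 was 3.96 ± 0.26 on the log2 scale (edgeR adjusted p = 0.000207). Ambp, which encodes the precursor of alpha-1-microglobulin and bikunin, had 12.8 and 7.78 CPM against 109 and 28.7 CPM, with DUX-pulsed replicate 1 well above replicate 2 (2.75 ± 0.51, edgeR adjusted p = 0.00949). Without the cells that hold all 3 genes of the Itih2, Ambp and Vtn or of the Ly6h, Rarres1 and Cldn9 set, Ambp no longer passed (log2 0.53, edgeR adjusted p = 0.591). Itih2 and Ambp also define the former set, so their rise and the larger overlap with that set are measures of the same cells.

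Rhox5, a homeobox gene of the X-linked reproductive cluster, rested on 1 library: it had 2.81 and 2.33 CPM in control members, 123 CPM in DUX-pulsed replicate 1 and 4.48 CPM in DUX-pulsed replicate 2. Without DUX-pulsed replicate 1 its log2 fold change was 0.80 and did not pass (edgeR adjusted p = 0.39). Vcan, Espn and Stmn1 lie in the higher regions of chromosomes 13 and 4. Vcan, the matrix proteoglycan versican, went from 17.3 and 18.8 CPM to 203 and 260 CPM. Gap43, best known from growing axons, lies outside the regions and went from 5.87 and 4.81 CPM to 51.5 and 54.2 CPM (edgeR adjusted p = 0.000207).

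The 10 largest falls were Sfrp5, Gjb1, Rarres1, Prss12, Nefl, Cox4i2, Tdh, Apoc1, Ramp2 and Myl7, all outside the regions. Sfrp5, a secreted WNT antagonist of the foregut and liver bud (chr19:42197971-42202252), had 59.4 and 51.4 CPM in control members and 1.73 and 7.17 CPM in DUX-pulsed members, where it rested on 4 and 16 UMIs. It fell by 3.65 on the log2 scale (SE 0.38, edgeR adjusted p = 0.00109). Rarres1, a membrane protein induced by retinoids, had 53.7 and 76.1 CPM against 4.76 and 12.1 CPM, and Gjb1, the gap junction protein connexin 32, had 63.7 and 65.7 CPM against 9.08 and 6.72 CPM. Rarres1 helps to define the Ly6h, Rarres1 and Cldn9 set, so its fall and the smaller overlap with that set are measures of the same cells. The naming rule required groups that do not overlap, so the separation of these genes follows from their choice.

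At higher levels, Ramp2, a subunit of the adrenomedullin receptor, went from 430 and 413 CPM to 90.4 and 78.0 CPM (log2 -2.32 ± 0.17, edgeR adjusted p = 0.000258). Tdh, the threonine dehydrogenase of mouse embryonic stem cells, had 367 and 362 CPM in controls and 50.1 and 80.7 CPM in DUX-pulsed members. Cox4i2, a cytochrome c oxidase subunit isoform, had 214 and 242 CPM against 39.3 and 34.5 CPM. Myl7, an atrial myosin light chain, had 77.5 and 52.2 CPM against 14.7 and 12.6 CPM. The fall of Myl7 depended on the rule: with 4 or more of the 7 markers it was 1.21 higher in DUX-pulsed cells on the log2 scale (edgeR adjusted p = 0.0466). Nefl and Apoc1 fell less far under that rule and did not pass (edgeR adjusted p = 0.0705 and 0.0982).

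**Figure D3:**
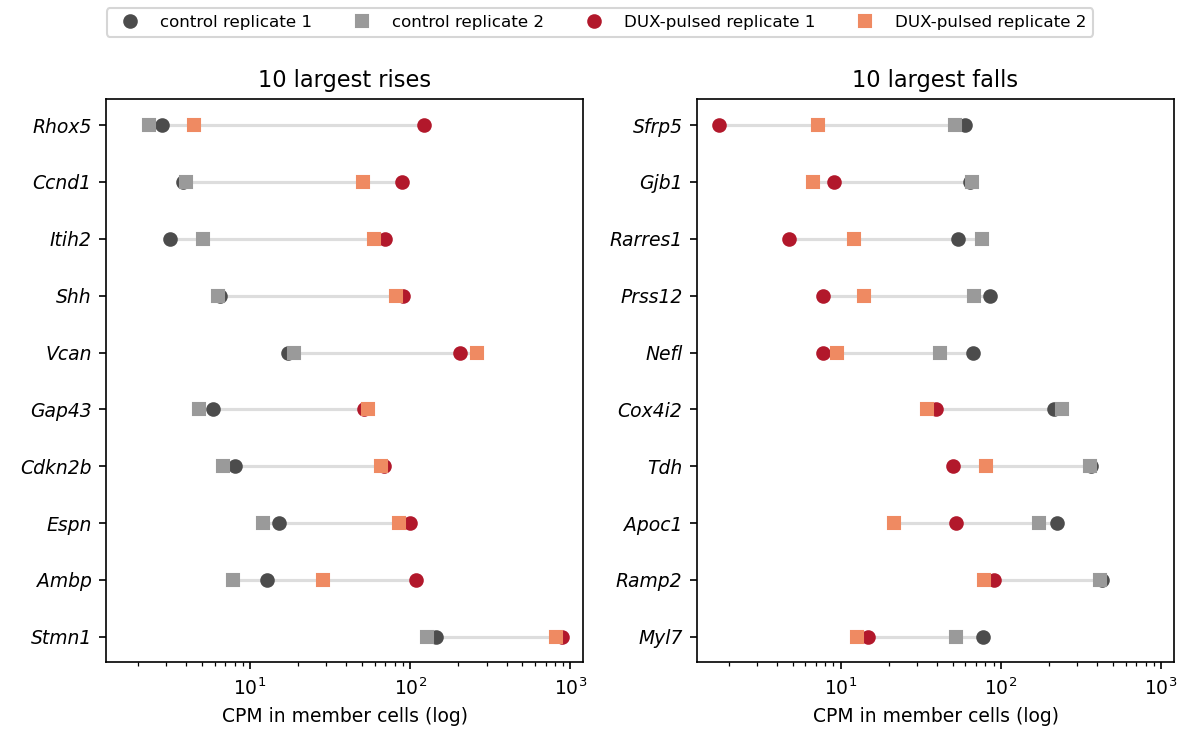
Points give the CPM over TMM-scaled library sizes (x axis, log scale) in member cells of each library for the 10 largest rises and 10 largest falls, and grey lines span the 4 values. Shh lies at 6.33 and 6.47 CPM in control and at 81.1 and 89.9 CPM in DUX-pulsed libraries, while the rise of Rhox5 rests on DUX-pulsed replicate 1, at 123 CPM.

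Of 21 endoderm transcription factors tested, 5 rose (Foxa1, Onecut1, Prox1, Hhex and Nr5a2) and 1 fell (Sox17), against 7.53% rising and 6.49% falling among all genes. The median log2 fold change of the list was -0.32. Onecut1, the relative of Onecut2 that acts in liver, pancreas and bile duct, went from 10.5 and 11.2 CPM to 22.5 and 30.5 CPM (log2 1.28 ± 0.23, edgeR adjusted p = 0.00757), and it was the gene of these 6 that passed in each of the 4 fits that left out a library. Its edgeR adjusted p reached 0.24 among the other alternatives, and it missed the threshold with 4 or more or 6 or more markers, under the stricter cell filter, after thinning and without cells of the Itih2 or Ly6h sets. Without control replicate 1 the other 4 rises and the fall of Sox17 did not pass. Hhex, a factor of the liver bud and foregut, had 57.8 and 55.5 CPM against 101 and 87.8 CPM (edgeR adjusted p = 0.0219, and 0.172 at most when a library was left out). Tcf7l2 and Gata6, the highest of the list, had 144, 163, 121 and 211 CPM and 167, 161, 111 and 126 CPM in the 4 libraries in order, and neither passed. Cdx2, in the lower region of chromosome 5, had 150 and 144 CPM in controls and 99.4 and 118 CPM in DUX-pulsed members (edgeR adjusted p = 0.126). Among members without Anpep, 2 genes of the list rose and 1 fell.

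The sum of the absorption and brush border genes was lower in DUX-pulsed members, and in the other kept DUX-pulsed cells too. Apoa1 and Apob held much of it in control members. Without TMM scaling they had 1436 and 623 of 3064 CPM in replicate 1 and 1601 and 998 of 3724 CPM in replicate 2. Of 18 tested, 9 fell (Dpp4, Slc7a9, Fabp1, Fabp2, Apoa1, Apob, Mttp, Muc13 and Lgals4) and 2 rose (Espn and Ezr), against 6.49% falling and 7.53% rising among all genes, with a median log2 fold change of -0.52. Muc13, a transmembrane mucin of the gut surface, had 38.5 and 40.4 CPM in control members and 6.92 and 3.58 CPM in DUX-pulsed members (log2 -2.90 ± 0.29, edgeR adjusted p = 0.000928). Apob, the structural protein of lipoproteins that gut, liver and yolk sac secrete, had 605 and 909 CPM against 267 and 287 CPM (log2 -1.45 ± 0.21, edgeR adjusted p = 0.00383). Apoa1 had 1396 and 1458 CPM against 761 and 775 CPM. With 4 or more of the 7 markers the fall of Apoa1 did not pass (log2 -0.53, edgeR adjusted p = 0.148). Lgals4, a gut galectin, had no UMI in the DUX-pulsed members, so no fold is given. In each of the 4 fits that left out a library, 6 of the 9 falls passed. Mttp did not, and Fabp1 and Lgals4 had too few counts to be tested without either control. Among members without Anpep 5 genes of the list fell and 1 rose.

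Of 5 goblet and secretory genes tested, Spdef, a goblet cell factor, rose, and Spink1 and Lypd8 fell, against 7.53% rising and 6.49% falling among all genes. Spink1, a trypsin inhibitor and the most abundant of them, had 3277 and 3457 CPM in control members and 1300 and 1158 CPM in DUX-pulsed ones (log2 -1.45 ± 0.16, edgeR adjusted p = 0.00122). Lypd8 rested on 23 and 22 UMIs in the controls and none in DUX-pulsed members, so no fold is given, and it did not pass in any fit that left out a library. Spdef was low, at 3.68 and 3.87 CPM in control members and 9.93 and 10.3 CPM in DUX-pulsed members without TMM scaling. Its rise did not pass with 6 or more markers or under the stricter cell filter (edgeR adjusted p = 0.279 and 0.0904). Of 5 stomach genes tested, Gkn2, a gastrokine, and Psca, a surface antigen of stomach and bladder, rose and none fell, against the same shares among all genes. The median log2 fold change of the 5 was -0.64. Psca had 6.64 and 7.62 CPM in control members and 43.7 and 29.6 CPM in DUX-pulsed members (log2 2.36 ± 0.25, edgeR adjusted p = 0.00104). Gkn2 had 3.23 and 4.01 CPM against 13.0 and 28.2 CPM, and with 6 or more of the 7 markers it was lower, not higher, in DUX-pulsed cells (log2 -1.64, edgeR adjusted p = 0.324).

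Among 7 enteroendocrine genes tested, Ghrl and Isl1 rose and Chga and Sct fell, against 7.53% rising and 6.49% falling among all genes. Ghrl had 102 and 119 CPM in control members and 387 and 337 CPM in DUX-pulsed members (log2 1.71 ± 0.17, edgeR adjusted p = 0.00101). With 6 or more of the 7 markers Ghrl no longer passed and was at -0.11 on the log2 scale (edgeR adjusted p = 0.863). Under the stricter cell filter its rise was 0.599 and did not pass (edgeR adjusted p = 0.1). Ghrl was higher in DUX-pulsed libraries in the other kept cells too, at 19.4 and 32.9 CPM against 106 and 96.5 CPM without TMM scaling. Isl1, a LIM homeodomain factor of endocrine and heart progenitors in the higher region of chromosome 13, had 1.02 and 0.641 CPM against 22.5 and 24.6 CPM. Chga, the granule protein chromogranin A, had 9.36 and 12.8 CPM in controls against 1.30 and 0 CPM, and Sct, secretin, 24.7 and 15.9 CPM against 5.62 and 4.93 CPM. The fall of Chga was no longer called when either control was left out, while that of Sct was. Members of the list thus moved in both directions.

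Of 17 liver-type secreted genes tested, 8 rose (Alb, Afp, Ambp, Itih2, Vtn, Fgg, Serpina1b and Serpina6) and 1 fell (Ttr), against 7.53% rising and 6.49% falling among all genes, with a median log2 fold change of 0.99. Among members without Anpep 4 rose and none fell. The set was not uniform. Afp, the most abundant riser, had 1078 and 1379 CPM in control members and 4825 and 5573 CPM in DUX-pulsed members (4.23-fold, log2 2.08 ± 0.18, edgeR adjusted p = 0.000582), and it passed in each alternative run. Rbp4, more abundant still, had 13300 and 12480 CPM against 9931 and 10030 CPM and did not pass (edgeR adjusted p = 0.136). Ttr, transthyretin, had 6148 and 6270 CPM against 4530 and 3920 CPM (edgeR adjusted p = 0.0464), and this call was lost in 10 alternatives, among them DESeq2 size factors, members without Anpep (edgeR adjusted p = 0.152), without DUX-pulsed replicate 1 (0.113) and without DUX-pulsed replicate 2 (0.332). Afp, Ambp and Itih2 passed in each fit that left out a library. Serpina1b did not pass with 6 or more markers, under the stricter cell filter or after thinning (edgeR adjusted p = 0.181, 0.309 and 0.0645). Nor did it pass without Anpep or without cells of the Itih2 and Ly6h sets (edgeR adjusted p = 0.0803 and 0.137). Vtn had 50.9 and 64.4 CPM against 129 and 71.1 CPM, without TMM scaling. Vtn also defines the Itih2, Ambp and Vtn set, so its rise and that overlap are measures of the same cells. Alb, Fgg and Serpina6 were carried by DUX-pulsed replicate 1, at 12.5, 13.0 and 17.7 CPM against 1.34, 2.24 and 0.896 CPM in replicate 2. Without DUX-pulsed replicate 1, 4 of the 8 rises passed and those 3 genes had too few counts to be tested. Without control replicate 1, 5 passed.

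Of 16 visceral endoderm genes tested, those of the yolk sac epithelium, 5 fell (Dab2, Soat2, S100g, Car4 and Slc13a4) and 2 rose (Rhox5 and Dkk1). Among all genes 6.49% fell and 7.53% rose. S100g did not pass with 4 or more markers or in members without Anpep (edgeR adjusted p = 0.796 and 0.114). Slc13a4 did not pass with 6 or more markers or after thinning (edgeR adjusted p = 0.377 and 0.0848). Car4, a membrane carbonic anhydrase, had 547 and 691 CPM in control members and 265 and 362 CPM in DUX-pulsed ones (log2 -0.98 ± 0.20, edgeR adjusted p = 0.0151). Apoe, the lipid carrier and the most abundant gene of the list in control members, had 7540, 5702, 7128 and 5623 CPM in the 4 libraries in order, and its groups overlapped. Of 11 parietal endoderm genes tested, 5 fell and none rose, against 6.49% falling among all genes: Col4a1 and Col4a2, chains of collagen IV, and Thbd, Pth1r and Srgn. When either control library was left out 3 of them passed (Col4a1, Col4a2 and Pth1r), and Thbd and Srgn had too few counts to be tested. Col4a1 had 594 and 593 CPM against 178 and 216 CPM (log2 -1.59 ± 0.17, edgeR adjusted p = 0.00117), though with 4 or more of the 7 markers it did not pass (the highest edgeR adjusted p over its alternatives was 0.35).

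Epithelial genes moved both ways, while among all genes 7.53% rose and 6.49% fell. Of 18 junction and keratin genes tested, Krt7, Cldn4, Ocln, Dsp and Dsg2 rose and Cldn7 and Cldn9 fell, and Ocln and Dsp lie in the higher region of chromosome 13. Cldn9 had 44.9 and 48.3 CPM in control members and 4.76 and 4.93 CPM in DUX-pulsed members (log2 -3.26 ± 0.25, edgeR adjusted p = 0.000258). Cldn9 helps to define the Ly6h, Rarres1 and Cldn9 set, so its fall and the smaller overlap with that set are measures of the same cells. Cldn4 rose although its gene lies in the lower region of chromosome 5, from 19.2 and 17.2 CPM to 45.0 and 38.1 CPM (edgeR adjusted p = 0.0057). Krt18 and Krt8, the most abundant keratins, had 3182, 2577, 2731 and 2104 CPM and 2441, 2257, 2010 and 1597 CPM in the 4 libraries in order, and neither passed.

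Relatives of the rule genes were measured as 2 lists, beside 7.53% rising and 6.49% falling among all genes. Of 12 tetraspanin, L6 and vanin relatives tested, Tspan12, Cd9 and Cd151 rose and Tm4sf5 fell. Cd9 had 105 and 112 CPM in control members and 303 and 241 CPM in DUX-pulsed members (log2 1.32 ± 0.18, edgeR adjusted p = 0.00286), and it was the gene of this list that passed in each fit leaving out a library. Cd63 and Cd81 had 534 to 738 CPM and 475 to 539 CPM and did not pass. Of 9 conjugation and drug-metabolizing enzymes tested, 3 fell (Gsta3, Cyp2s1 and Cyp3a13) and none rose, and Cyp3a13 lies in the lower region of chromosome 5. Gsta3 was near the floor, at 7.44 and 7.22 CPM against 0 and 0.428 CPM without TMM scaling. Its fall did not pass with 4 or more or with 6 or more markers (edgeR adjusted p = 0.0935 and 0.0856). Cyp2s1, a cytochrome P450 of epithelia, had 102 and 100 CPM against 21.2 and 42.1 CPM (log2 -1.68 ± 0.27, edgeR adjusted p = 0.00533).

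Of 16 genes of the G2 and M phases, 7 rose in DUX-pulsed members (Mki67, Ccnb1, Ccnb2, Aurkb, Plk1, Ube2c and Cenpf), 9 did not pass and none fell, against 7.53% rising among all genes, with a median log2 fold change of 0.68, while of 16 S phase genes Rrm1 rose and none fell. Ube2c, which loads ubiquitin on mitotic cyclins, had 212 and 242 CPM in control members and 508 and 603 CPM in DUX-pulsed members (log2 1.29 ± 0.17, edgeR adjusted p = 0.00284). Ccnb1, cyclin B1, lies on chromosome 13 and went from 45.7 and 55.4 CPM to 169 and 227 CPM. Ccnb1, Cenpf and Ube2c passed in each fit leaving out a library, and without control replicate 1 they were the 3 left.

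Markers of other cell types were measured in the same sums. The counts of these lists stand beside 7.53% rising and 6.49% falling among all genes. The 13 heart muscle genes summed to 244 and 144 CPM in control members and to 81.0 and 91.7 CPM in DUX-pulsed members, against 1521 to 8979 CPM in the other kept cells, and of 10 tested Myh6 and Myl7 fell and none rose. With 4 or more markers both turned and passed as higher in DUX-pulsed cells (Myh6 1.28 and Myl7 1.21 on the log2 scale, edgeR adjusted p = 0.0161 and 0.0466). The fall of Myh6 did not pass with 6 or more markers or after thinning (edgeR adjusted p = 0.0501 and 0.0986). Of 8 mesenchyme genes tested, Col3a1, Vim and Fn1 rose and Pdgfra fell, and the 12 genes of the list summed to 749 and 932 CPM in control members and 1462 and 1507 CPM in DUX-pulsed ones. Blood genes were near the floor: 12 myeloid genes summed to 5.56 to 9.07 CPM in members, with C1qa, Cd52, Cx3cr1 and Ptprc at 0. The 12 erythroid genes summed to 7.94 to 73.7 CPM. Of 8 pluripotency genes tested, Klf4, Tfcp2l1 and Dnmt3b fell and none rose. The part of RNA from these cells in the results was not tested.

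**Figure D4:**
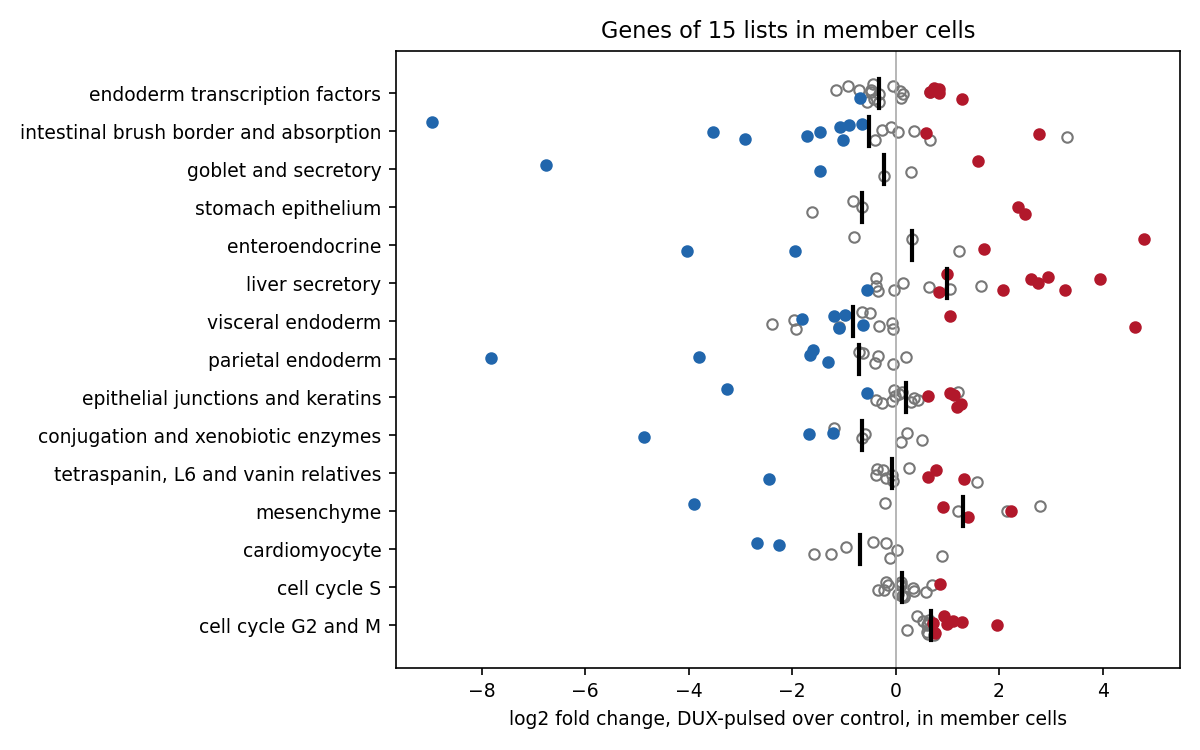
Each point is a tested gene of a list, at its fitted log2 fold change between DUX-pulsed and control members (x axis), filled red where it rose, blue where it fell at an edgeR adjusted p under 0.05, and open otherwise, with the list's median as a black bar. Points below about -5 are genes with no or almost no UMI in DUX-pulsed members, whose fitted value is no measure of size. The median is 0.99 for liver-type secreted genes and -0.52 for brush border genes.

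Whether the DUX effect in members differed from that in the other kept cells was tested with an interaction term over the 8 sums, with library as a block. The effect was more positive in members in 736 of 16099 genes (4.57%) and more negative in 762 (4.73%), 9.30% in all. In the other kept cells, which mix many cell types in unequal shares between the groups, 2456 of 15980 genes rose (15.4%) and 1718 fell (10.8%), 26.1% in all. In the other kept cells with an Epcam UMI, 1155 of 15129 genes rose (7.63%) and 754 fell (4.98%), 12.6% in all. Against these cells the effect was more positive in members in 192 of 15285 genes (1.26%) and more negative in 364 (2.38%), 3.64% in all. Leaving out control replicate 2 left 158 more positive and 277 more negative genes, and leaving out control replicate 1 left 246 and 421.

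The largest positive differences were in Dkk1, Shh, Ccnd1, Apela and Cpn1. Dkk1, a secreted WNT antagonist, had 36.9 and 33.8 CPM in control members and 62.3 and 85.1 CPM in DUX-pulsed members, whereas in the other kept cells the means were 84.4 ± 0.924 CPM (SD, n = 2) and 27.4 ± 3.50 CPM. The difference of effects was 2.61 ± 0.13 on the log2 scale (edgeR adjusted p = 1.01e-05) and 1.96 against Epcam cells (edgeR adjusted p = 8.68e-05). With 6 or more markers the difference in Dkk1 was 1.38 and did not pass (edgeR adjusted p = 0.0713), and its rise within members did not pass with 4 or more or 6 or more markers. Ccnd1 rose in both sets of cells and by 2.32 more in members (edgeR adjusted p = 0.00021), with 2.01 against Epcam cells (edgeR adjusted p = 0.00269). For Shh the difference was 2.38 (edgeR adjusted p = 0.0182), but it did not pass against Epcam cells (1.52, edgeR adjusted p = 0.159), without control replicate 2 (1.55, edgeR adjusted p = 0.11) or without DUX-pulsed replicate 1 (1.70, edgeR adjusted p = 0.0618). Apela, a peptide ligand of the apelin receptor, and Cpn1, a plasma carboxypeptidase, did not pass within members but fell in the other kept cells.

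The largest negative differences were in Rhox6, Hba-a2, Myh6, Apobec2 and Pgam2. Myh6, Apobec2 and Pgam2 are muscle genes and Hba-a2 is a globin, and all 3 muscle genes rose in the other kept cells, where the mean of Myh6 went from 56.7 ± 9.12 CPM to 381 ± 61.3 CPM (SD, n = 2). In members Myh6 had 14.2 and 11.5 CPM in controls and 1.73 and 2.24 CPM in DUX-pulsed libraries. These genes were near the floor in DUX-pulsed members, with 0 to 5 UMIs per library. With 4 or more markers the differences of Hba-a2 and Apobec2 were -0.98 and -0.19 and did not pass (edgeR adjusted p = 0.551 and 0.886), while those of Rhox6, Myh6 and Pgam2 passed but were smaller, at -4.34, -1.45 and -2.58. Heart muscle cells, as defined by Tnnt2, Myh6 and Tnni3, numbered 44 and 27 among the other kept cells of the controls and 338 and 210 among those of the DUX-pulsed libraries. The part of this in the differences was not tested.

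**Figure D5:**
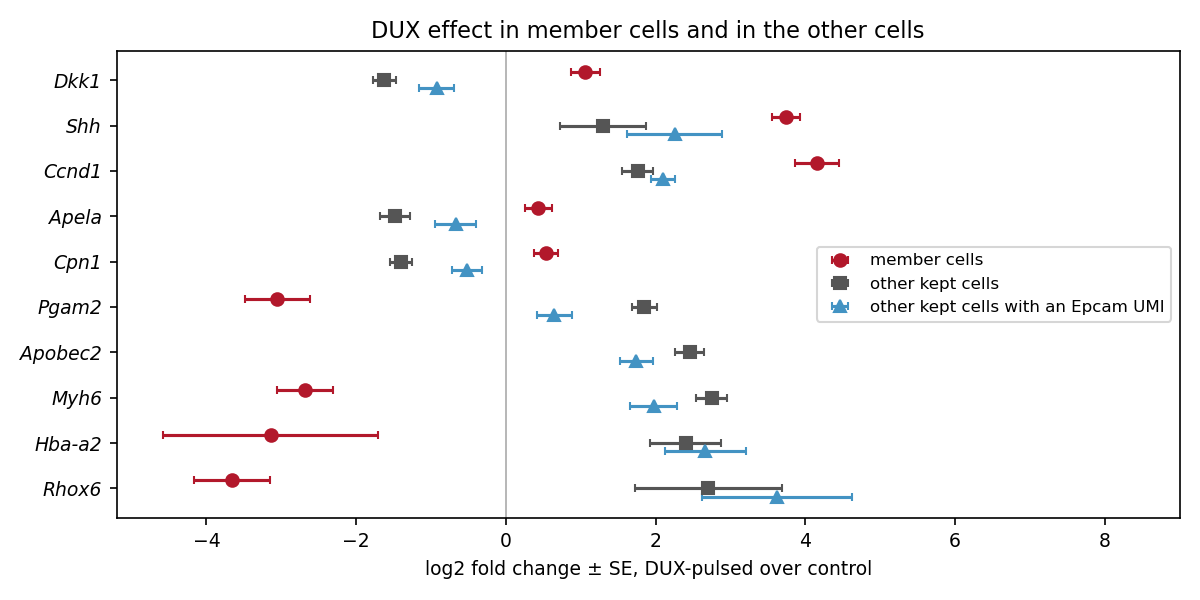
Log2 fold changes between DUX-pulsed and control libraries (x axis, with SE) of the 10 genes with the largest differences of effects, in member cells, in the other kept cells and in the other kept cells with an Epcam UMI. Dkk1 lies at 1.06 in members and at -1.62 in the other kept cells, and Apobec2 was not tested within members alone.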

How the data were processed

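Single cells of 4 day 9 embryoid body libraries, 2 per group, were measured with 10x Genomics droplets. The authors deposited UMI counts per gene and cell for each library, made with Cell Ranger 2.2.0 and STAR on build mm10 per the submitters' processing notes, and the counts were used as deposited. Cells with fewer than 500 detected genes or over 10% mitochondrial counts were left out. Counts of members, and of the other kept cells, were summed per library and tested with edgeR 4.0.16 (TMM scaling, quasi-likelihood test, Benjamini-Hochberg adjustment over all genes tested) in R 4.3.3. The p-values measure the spread between libraries. Effects were compared by an interaction over 8 sums with library as a block, and shares by an exact permutation test. Scripts were tested on simulated data. DESeq2 1.42.0, other marker numbers and filters, thinning and leaving out each library were alternatives. Named genes were the 10 largest rises and 10 largest falls, with 50 CPM or more in the higher group and no overlap of the groups, 5 differences of effects in each direction, the 20 genes with the largest ratio to other cells, and of each endoderm or gut list the 2 highest and the 2 with the smallest p. Mitochondrial, ribosomal, Gm and Rik genes and the 7 rule genes were not named this way, and other genes given with values were chosen after these were seen. The members and lists were chosen with earlier results of these data known. Gene positions are from GENCODE vM21 (mm10). Where near-identical copies exist (Rhox5, Rhox6, Hba-a2, Serpina1b, Gsta3, Ugt2b34), reads may be split between genes, so their values are uncertain.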

Additional observations from a re-analysis of the deposited data

Results flagged for a closer look

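The effect of the DUX pulse differed between members and the other kept cells, by an interaction term in edgeR (Benjamini-Hochberg adjusted p over 16099 genes), in each of the following 10 genes, which were the 5 with the largest differences in each direction under the naming rule. The differences on the log2 scale were 2.61 for Dkk1 (SE 0.13, edgeR adjusted p = 1.01e-05), 2.38 for Shh (SE 0.50, edgeR adjusted p = 0.0182) and 2.32 for Ccnd1 (SE 0.19, edgeR adjusted p = 0.00021). They were 1.87 for Apela (SE 0.13, edgeR adjusted p = 7.37e-05) and 1.87 for Cpn1 (SE 0.12, edgeR adjusted p = 4.48e-05). In control members Apela had 64.9 and 76.2 CPM and in DUX-pulsed members 89.1 and 102 CPM, while it fell by 1.49 in the other kept cells.

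Negative differences were -6.56 for Rhox6 (edgeR adjusted p = 0.000468), -5.68 for Hba-a2 (edgeR adjusted p = 0.0272), -5.50 for Myh6 (edgeR adjusted p = 3.71e-06), -5.39 for Apobec2 (edgeR adjusted p = 0.0233) and -4.99 for Pgam2 (edgeR adjusted p = 0.000286). Rhox6 had 152 and 121 UMIs in members of control replicates 1 and 2 and 3 and 1 UMIs in those of DUX-pulsed replicates 1 and 2. Hba-a2 had 39, 11, 0 and 1 UMIs in the same order, and its difference did not pass without either DUX-pulsed library, with 4 or more markers (-0.98, edgeR adjusted p = 0.551) or with 6 or more (edgeR adjusted p = 0.125). The 34, 6, 1 and 0 UMIs of Apobec2 did not allow a test within members, and its difference did not pass without control replicate 1, without either DUX-pulsed library or against Epcam cells (-4.63, edgeR adjusted p = 0.101), nor with 4 or more markers (-0.19, edgeR adjusted p = 0.886) or 6 or more (edgeR adjusted p = 0.656). With 4 or more markers the differences of Rhox6, Myh6 and Pgam2 passed but were -4.34, -1.45 and -2.58. Within members, the falls of Rhox6 (-1.25, edgeR adjusted p = 0.328) and Pgam2 (-0.69, edgeR adjusted p = 0.225) did not pass under that rule. Sizes that rest on 0 to 5 UMIs in DUX-pulsed members depend on the model's prior count.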

How the results depend on the processing

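The difference in the share of members (-6.55 points) was -9.78 with 4 or more markers, -3.72 with 6 or more, -3.10 under the stricter cell filter, -2.66 after thinning, -4.24 among Epcam cells, -2.54 among thinned Epcam cells and -3.64 with 5 of 6 markers without Anpep. It was -7.94 to -5.17 with a library left out, and reversed to 1.13 with 4 of 6 markers without Anpep among Epcam cells. Genes that rose in members (908) numbered 478 without genes of the chromosome regions and Y, 511 with 6 or more markers, 565 after thinning, 569 without Anpep, 577 without cells of the 2 other sets, and 602 to 1144 with a library left out. Genes that fell (782) numbered 491 with DESeq2, 377, 343, 396 and 432 under those marker, thinning, Anpep and set alternatives, and 370 to 1061 with a library left out. In the other kept cells, rises were 1064 and falls 820 under the stricter filter, 1155 and 754 among Epcam cells, and 1704 to 2960 and 985 to 2273 with a library left out. More positive and more negative effects in members were 1233 and 1151 with 4 or more markers, 179 and 205 with 6 or more, 192 and 364 against Epcam cells, and 158 to 717 and 277 to 802 with a library left out. With 4 or more markers Myl7 and Myh6 reversed to 1.21 and 1.28, and with 6 or more Ghrl and Gkn2 reversed to -0.11 and -1.64. The cause of these changes was not tested. Over all single genes and alternatives, 1389 values kept their side of the threshold, 89 lost it, 34 gained it and 4 reversed. When a library was left out, the lone library of its group was assumed to vary like the other group.

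With the replicate number as a replicate block, 1875 genes rose, 1747 fell and the share differed by -6.55 points. Same-numbered libraries deviated together (r = 0.60 over 3303 genes), but there are only 2 pairs and the labels give no shared batch, so the numbers were not taken to pair the samples. With 2 libraries per group and 53 to 55 members in each DUX-pulsed one, the depth of genes under about 10 counts limits what can be seen.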
